A study of Mus musculus with 11 samples.

Results

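The replication-dependent histone genes encode the H1, H2A, H2B, H3 and H4 proteins that package newly copied DNA, and the genes described here are the 59 whose symbol begins with Hist1h, Hist2h, Hist3h or Hist4h, of 13498 genes in the deposited count table. By the protein named in the symbol, 6 were H1, 14 H2A, 17 H2B, 10 H3 and 12 H4 genes. Ribosome-depleted total RNA was sequenced from mouse retinas (NMRI strain) at E13.5, in 4 groups. All dams had been given tamoxifen (per injection, 0.15 mL at 20 mg/mL) at E10.5 and again at E11.5, and all embryos carried floxed Six3 alleles (Six3F/F). The WT group (3 libraries) was Six3F/F with Six6+/+ and no Cre. The Six3KO group (3) was of the same genotype plus CAGGCre-ERTM, a tamoxifen-inducible Cre driven by a ubiquitous promoter, so recombination is not limited to the retina. The Six6KO group (2) was Six3F/F with Six6-/- and no Cre. The DKO group (3) combined Six3F/F, CAGGCre-ERTM and Six6-/-. Six3 and Six6 are homeodomain transcription factors of the early eye, and the study compared each mutant with WT. Each library came from a pair of retinas, described as a biological replicate, and a further Six6KO sample had been removed for high duplication. Cre was present in the Six3KO and DKO groups alone, so loss of Six3 and presence of Cre cannot be told apart.

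Histone messenger RNAs of this family are made in S phase, when DNA is replicated, and they are the main messenger RNAs of animal cells that lack a poly(A) tail. They end instead after a short stem-loop, which stem-loop binding protein (Slbp) recognises for processing, translation and decay at the end of S phase. The embryonic retina is rich in cycling progenitors, which leave the cycle as they become neurons. Libraries made by poly(A) selection lose most of these RNAs, whereas removal of ribosomal RNA keeps them.

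The stem-loop was readable in the annotation. GENCODE vM21 (GRCm38) gave at least 16 bases of 3′ UTR for 43 of the 59 genes, and 37 of these held a perfect 6-base stem beginning GG around a 4-base loop beginning TTT. Its first base lay 22 to 55 bases after the stop codon, with a median of 32. The 16-base sequences are shown because they are the feature that sets these RNAs apart, with the loop in capitals and each named by 1 gene that carries it.
Hist1h2bg: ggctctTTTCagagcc
Hist1h3e: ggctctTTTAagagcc
Hist1h4d: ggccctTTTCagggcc
Hist1h4i: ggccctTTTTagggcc
Hist1h4b: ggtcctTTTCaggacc
Hist2h2ac: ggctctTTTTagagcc
The form in Hist1h2bg was found in 20 genes of classes H1, H2A, H2B and H3, and that in Hist1h3e in 6 genes of H1, H2B and H3. The form in Hist1h4d was found in 6 genes, all H4. The forms in Hist1h4i and Hist1h4b were found in 2 H4 genes each, and the last in Hist2h2ac alone. Hist2h2be, an H2B gene, was annotated with 2192 bases of 3′ UTR in which no such match was present. Hist1h1a, Hist1h2bc, Hist1h3g, Hist1h4a and Hist2h3b also had at least 16 bases and no match. The search took perfect stems only.

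The promoters also shared motifs. RefSeq (GRCm38.p6) gave a promoter window, 250 bases before to 50 bases after the start, for 52 of the 59 genes, and both strands were searched for exact matches. CCAAT was present in 44 of 52 windows (84.6%) against 37.4% of 32851 windows of all genes, and in every H1, H2A, H2B and H3 window but only 3 of 11 H4 windows. TATAAA was present in 32 (61.5%) against 13.6%. The octamer ATTTGCAT, the motif bound by Oct1 (Pou2f1), was present in 12 (23.1%) against 1.74%, in 6 of 13 H2A and 6 of 14 H2B windows and in none of the other classes. None of these motifs contains another. Promoters of 2 genes are shown with the motifs in capitals, the first because 1 stretch lies between the start sites of an H2A and an H2B gene, the second as an H4 promoter with CCAAT and TATAAA but no octamer.
Hist1h2bg, bases before the start, chr13:23571221-23571399, plus strand, GRCm38.p6: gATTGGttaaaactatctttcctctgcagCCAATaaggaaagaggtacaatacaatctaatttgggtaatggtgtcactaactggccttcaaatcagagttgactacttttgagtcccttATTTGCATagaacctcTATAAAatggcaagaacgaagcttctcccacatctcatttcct
Hist1h4d, bases before the start, chr13:23581318-23581567, plus strand, GRCm38.p6: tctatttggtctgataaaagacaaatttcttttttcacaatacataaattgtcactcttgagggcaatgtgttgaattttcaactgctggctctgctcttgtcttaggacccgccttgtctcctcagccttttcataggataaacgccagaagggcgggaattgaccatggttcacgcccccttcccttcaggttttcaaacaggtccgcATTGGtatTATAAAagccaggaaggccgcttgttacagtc
The first stretch reaches back to the start of Hist1h2ae, transcribed the other way. In total 11 pairs of divergent genes had starts within 1000 bases of each other in GENCODE.

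Most of the genes are clustered. On chromosome 13 lay 49, all but Hist1h2al between 21715763 and 23934156, and chromosome 3 held 6, between 96219865 and 96270132. Chromosomes 11 and 6 held 3 and 1. Near-identical copies limit what a count of 1 gene means here: a median of 43.8% of a gene's 50-base words (0% to 93.9%) also occurred in transcripts of other loci, and 43 of the 59 genes shared more than 20%. The class medians were 1.12% for H1, 34.2% for H4, 40.1% for H2B, 57.2% for H3 and 62.5% for H2A, so the split between genes of the last 2 classes is the least certain. Exons of 19 genes overlap another gene, and 2 genes (Hist1h2al and Hist3h2bb-ps) are annotated as processed pseudogenes.

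Libraries held 7807744 to 16403191 counted reads. Six3 had 1748 to 2588 reads in WT, 300 to 1213 in Six3KO and 699, 678 and 1238 in DKO libraries rh010, rh011 and rh021. Six6 had 2173 to 2941 reads in WT, 718 and 1132 in Six6KO and 683, 637 and 1259 in the same DKO libraries, so rh021 had the most reads of both among the DKO libraries. The mean log2 level of 12 retinal progenitor markers, Six3 and Six6 among them, relative to WT was also higher in rh021 (-0.35) than in rh010 and rh011 (-0.91 and -0.96). The log2 fold change against WT was -1.93 ± 0.429 for Six3 in Six3KO and -1.43 ± 0.404 for Six6 in Six6KO (edgeR, adjusted p = 1 and 0.991), and Six6 was called lower in DKO (-2.01 ± 0.357, adjusted p = 0.0342). The exons that the alleles remove are not stated in the labels. The retinal genes Pax6 (at least 4781 reads) and Rax (at least 979) were present in every library. Summed markers of other tissues differed widely among libraries: 12 genes of periocular mesenchyme summed to 50.4 to 117 CPM (TMM-scaled counts divided by the library's size) in DKO and 357 to 3757 in the other libraries, and 11 lens genes to between 7.53 and 21029 CPM.

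Histone genes took about 1% to 2% of all counted reads. In WT the share was 1.88% in library rh016, 1.19% in rh023 and 1.1% in rh024, with a mean of 1.39% ± 0.431 (SD, n = 3). In Six3KO it was 0.967% in rh006, 0.915% in rh012 and 0.869% in rh026, with a mean of 0.917% ± 0.049 (n = 3). In Six6KO it was 1.15% in rh007 and 1.93% in rh020, and in DKO 0.963% in rh010, 0.888% in rh011 and 1.29% in rh021 (mean 1.05% ± 0.216, n = 3). All 3 Six3KO libraries lay below all WT and Six6KO libraries. The DKO libraries overlapped WT through rh021 alone, and 2 libraries of different genotype, WT rh016 and Six6KO rh020, stood well above the rest. Counting error was small beside this spread: the Wilson 95% interval of rh016 ran from 1.88% to 1.89%, and such intervals cover counting error only. In bulk tissue, fewer S phase cells and less histone RNA per cell cannot be told apart.

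**Figure D1:**
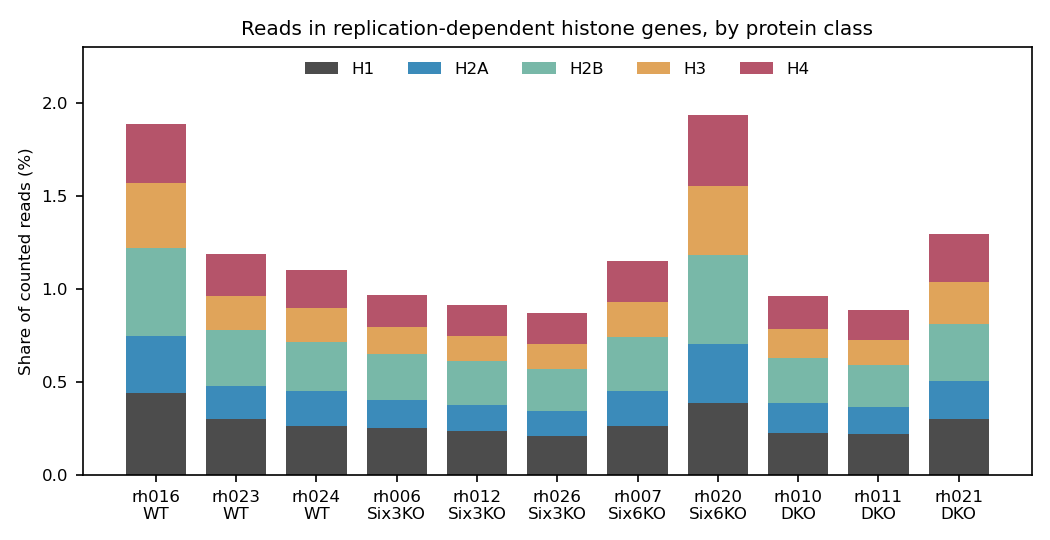
Share of counted reads (%) in the 59 histone genes of each library, stacked by protein class (H1, H2A, H2B, H3, H4), 1 bar per library. The bars of WT rh016 (1.88%) and Six6KO rh020 (1.93%) are the tallest, and the 3 Six3KO bars lie between 0.869% and 0.967%.

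All 5 classes took part in the difference between libraries of 1 group. In WT rh016 all 57 genes with enough reads to be tested were above the mean of rh023 and rh024, with a median ratio of 1.63, against 1.01 over all genes with at least 1 CPM. The median was 1.92 for H3 genes and 1.4 for H4 genes. In Six6KO, 54 of 57 were higher in rh020 than in rh007, with a median ratio of 1.67 against 1 over all genes, and again the H3 genes had the largest class median (1.85). In DKO, 53 of 57 were higher in rh021 than the mean of rh010 and rh011 (median ratio 1.44). The Six3KO libraries differed least: the median of rh026 over the mean of the other 2 was 0.925, with 16 genes above 1.

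**Figure D2:**
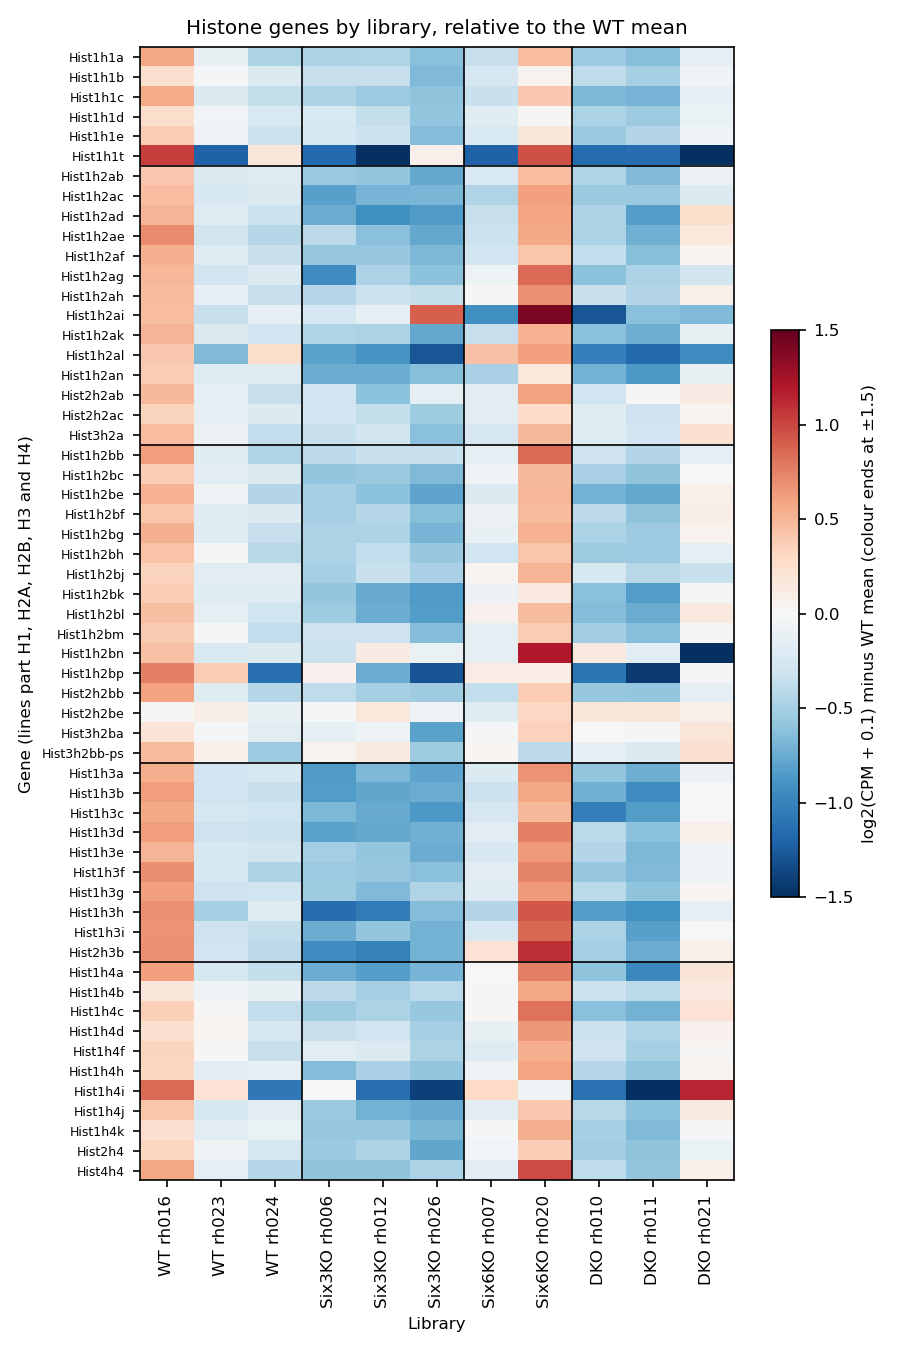
Log2(CPM + 0.1) minus the WT mean of each tested histone gene (rows, parted by class) in each library (columns, parted by group); colour ends at ±1.5. The columns of WT rh016 and Six6KO rh020 are high and those of the 3 Six3KO libraries, DKO rh010 and DKO rh011 low across nearly all rows; Hist2h2be varies little.

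A filter on low counts kept 57 of the 59 genes. The other 2 were Hist1h2ba, a testis H2B gene with 0 to 10 reads per library, and Hist1h4m, with 0 reads in every library, which allows up to 0.0248 CPM over all libraries (3 counts of 120795503). That limit is for counted reads only: 89.8% of the 50-base words of Hist1h4m occur at other loci, and the treatment of such reads is not stated. Hist1h1t, the testis H1, was tested but had 0 to 19 reads, so its fold changes rest on few counts. The genes described next are the 3 of each class with the highest CPM over all libraries, CPM being per gene and not per base of length.

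The H1 proteins bind the DNA between nucleosomes. Hist1h1a had 938 CPM in WT rh016, 584 in rh023 and 454 in rh024, against 458, 459 and 408 in Six3KO. It had 494 CPM in Six6KO rh007 and 866 in rh020, and 432, 404 and 568 in DKO. Libraries rh016, rh023, rh020 and rh021 lay above the rest, but the Six3KO and WT ranges overlapped. Hist1h1e had 606 to 983 CPM in WT and 482 to 634 in Six3KO, and Hist1h1d 568 to 801 in WT and 440 to 567 in Six3KO, so the latter pair of ranges met without overlapping.

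H2A and H2B form the dimers that flank the tetramer of H3 and H4 in the nucleosome core. Hist1h2ak had 526, 319 and 301 CPM in the WT libraries (rh016, rh023, rh024) and 271, 267 and 217 in Six3KO (rh006, rh012, rh026). It had 291 and 532 CPM in Six6KO (rh007, rh020) and 241, 223 and 341 in DKO (rh010, rh011, rh021). Its Six3KO values all lay below WT, and DKO rh021 lay within the WT range. Hist1h2ab had 235 to 360 CPM in WT, 159 to 184 in Six3KO and 172 to 256 in DKO.

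Hist1h2bg, with the promoter shown above, had 549, 336 and 299 CPM in WT and 277, 275 and 235 in Six3KO. It had 351 and 547 CPM in Six6KO and 275, 261 and 394 in DKO. As for Hist1h2ak, WT rh016 and Six6KO rh020 were highest and Six3KO rh026 lowest. Hist2h2bb, on chromosome 3, had 1183, 686 and 577 CPM in WT and 595, 549 and 538 in Six3KO, which overlapped WT. The H2B gene Hist1h2bb had 201 to 426 CPM in WT and 209 to 219 in Six3KO, so its Six3KO values fell inside the WT range.

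H3 and H4 form the tetramer at the centre of the nucleosome. Hist1h3b had 398, 210 and 205 CPM in WT and 144, 150 and 154 in Six3KO. It had 207 and 384 CPM in Six6KO and 156, 135 and 257 in DKO. Every Six3KO value was below every WT and Six6KO value. Hist1h3e had 424 to 733 CPM in WT and 306 to 361 in Six3KO, and Hist1h3c 320 to 584 and 216 to 246, again with no overlap.

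Hist1h4d, the H4 gene of the second promoter above, had 699, 610 and 500 CPM in WT and 471, 486 and 422 in Six3KO. It had 554 and 939 CPM in Six6KO and 477, 438 and 626 in DKO. The gap between the closest WT and Six3KO libraries was small. Hist1h4h had 301 to 422 CPM in WT and 216 to 241 in Six3KO, and Hist1h4c 187 to 308 and 163 to 174.

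Six3KO was compared with WT first, which addresses the loss of Six3 together with the gain of Cre. Of the 57 tested genes 55 had estimates below 0, and the median log2 fold change was -0.62, against -0.005 over all 13292 genes tested. No histone gene was called by edgeR's quasi-likelihood test at an adjusted p under 0.05 (Benjamini-Hochberg; 0.00752% of all genes were called), and 30 had an unadjusted p under 0.05, all lower (3.5% of all genes, either direction). In 38 of 57 genes every Six3KO library was below every WT library, against 3.7% of all genes. Without WT rh016, the WT library of highest histone share, the median was -0.33 and 4 of 57 genes had an unadjusted p under 0.05, against 3.38% of all genes under the same setting. The class medians were -0.52 for H1, -0.53 for H2B, -0.62 for H4, -0.66 for H2A and -0.83 for H3.

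Cell type markers differed between these groups as well. The 12 retinal progenitor markers include the targeted genes Six3 and Six6; the other 10 all had estimates below 0 (median -0.27) and summed to 2467 to 5134 CPM in Six3KO and 4378 to 6816 in WT. All 11 lens markers had estimates above 0 and summed to 238 to 21029 CPM in Six3KO and 20 to 1134 in WT, with Foxe3, a lens transcription factor, at 1 to 53 reads in WT and 8 to 120 in Six3KO. None of these markers was called, and their part in the histone values was not tested.

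Single estimates in Six3KO against WT ran from -1.437 (Hist1h1t, with few counts) to 0.213, with quartiles of -0.745 and -0.444. For Hist1h3b the log2 fold change was -0.86 ± 0.336 (SE; adjusted p = 1). For Hist1h4d it was -0.39 ± 0.214 (adjusted p = 1). For Hist1h2bk, which falls outside the rule for named genes, it was -0.75 ± 0.223 (edgeR, unadjusted p = 0.00737, adjusted p = 1).

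DKO was compared with WT next, and with the same WT libraries, so that these comparisons are not independent. Estimates were below 0 for 55 of 57 genes with a median of -0.4, against -0.004 over all genes. No histone gene was called (1.29% of all genes were) and 2 had an unadjusted p under 0.05, both lower (13% of all genes, either direction). Only 3 genes had every DKO library below every WT library (Hist1h2ai, Hist1h2al and Hist1h2bj), against 8.46% of all genes. The median was -0.14 without WT rh016 and -0.59 without DKO rh021, so the size of the difference depended on which of these 2 libraries was kept. The count of genes with an unadjusted p under 0.05 moved as well. It was 1 without WT rh016 (11.8% of all genes), 14 without WT rh024 (11.9%) and 24 without DKO rh021 (12.3%). The 6 highest estimates were those of Hist2h2be (0.15), Hist3h2ba (0.04), Hist2h2ab (-0.09), Hist3h2a (-0.11), Hist2h2ac (-0.16) and Hist1h4b (-0.18), of which the first 5 changed sign under at least 1 alternative setting. Of the 6, Hist1h4b alone lies in the large cluster of chromosome 13. Of other genes outside that cluster, Hist2h2bb (-0.48), Hist2h3b (-0.44), Hist2h4 (-0.41) and Hist4h4 (-0.33) were near the histone median, and Hist1h2al (-1.11) was well below it. The pseudogene Hist3h2bb-ps, with under 5 CPM, was at -0.09. The 6 lowest were Hist1h2al (-1.11), Hist1h2bp (-0.92), Hist1h2ai (-0.89), Hist1h3h (-0.68), Hist1h3c (-0.6) and Hist1h3b (-0.57). Class medians lay between -0.33 (H4) and -0.49 (H3). All 12 mesenchyme markers had estimates below 0 in this comparison and 1, Col1a1, was called (log2 fold change -4.51 ± 0.862, adjusted p = 0.0475); with the mean of these markers as a covariate, the histone median was -0.29. Other markers also differed. Of the 10 progenitor markers other than Six3 and Six6, 7 had estimates below 0 and 3 above (median -0.46), none was called, and Pax6 was at 0.5 ± 0.182 (adjusted p = 0.262); they summed to 2836 to 4117 CPM in DKO. All 10 ganglion cell markers (median -0.65, Rbpms called) and all 8 blood vessel markers (median -1.59, Kdr called) had estimates below 0, as did all 11 lens markers (median -2.77) and all 6 red blood cell markers tested (median -1.21). Of 6 macrophage markers tested, 5 had estimates above 0 (median 1.21), with none called. Apart from the mesenchyme covariate, the part of all these markers in the histone values was not tested.

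Six6KO was compared with WT with 2 libraries. Estimates were above 0 for 48 of 57 genes, with a median of 0.16 (all genes 0.01). No histone gene was called, no gene in all was called either (0%), and no histone gene had an unadjusted p under 0.05 (3.9% of all genes); DESeq2 called no histone gene and 2 genes in all. The direction rested on 1 library: without Six6KO rh020 the median was -0.24, and without rh007 it was 0.48.

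The DKO group was also set against each single mutant. Against Six3KO, with which it shares Cre, 52 of 57 estimates were above 0 with a median of 0.24, none was called (0.587% of all genes were) and none had an unadjusted p under 0.05 (13.2% of all genes). Without DKO rh021 this median was 0.01. Against Six6KO, 55 of 57 estimates were below 0 with a median of -0.58, none was called (0.233% of all genes) and 14 had an unadjusted p under 0.05, all lower (14.8% of all genes). Without Six6KO rh020 this median was -0.13. In the same comparison all 12 mesenchyme markers (median -4.36, each with an unadjusted p under 0.05), all 11 lens markers (-5.88), all 8 blood vessel markers (-2.32) and all 6 red blood cell markers tested (-1.88) had estimates below 0, with none called. With the mean of the mesenchyme markers as a covariate in the edgeR fit, 1 histone gene had an unadjusted p under 0.05 (9.61% of all genes). Apart from that covariate, the part of these markers in the histone values was not tested. The difference between DKO and the added effects of both single mutants had a median of 0.04, with no histone gene called (0% of all genes called) and none with an unadjusted p under 0.05 (9.99% of all genes).

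**Figure D3:**
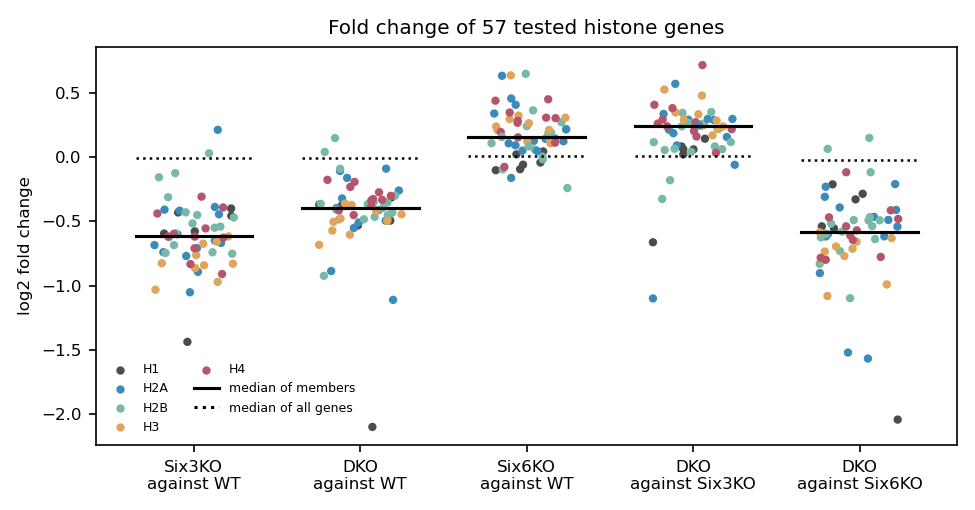
Fitted log2 fold change of each of the 57 tested histone genes (points, coloured by class) in 5 comparisons, with the members' median (solid line) and the median of all genes (dotted line). Most points lie below the dotted line in Six3KO against WT (median -0.62) and above it in Six6KO against WT (0.16); no point was called.

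The 6 Cre-carrying libraries were compared with the 5 Cre-free ones within each Six6 genotype. Estimates were below 0 for 56 of 57 genes with a median of -0.6 (all genes -0.01). No histone gene was called by edgeR (0.0226% of all genes were) and 46 had an unadjusted p under 0.05, all lower (9.67% of all genes); DESeq2 called 11 histone genes, all lower, and 1.79% of all genes. In 2 genes, Hist1h2al and Hist1h2bj, all 6 Cre-carrying libraries lay below all 5 Cre-free ones, against 0.301% of all genes. Without rh016 and rh020 together, which can only add to such a count, there were again 2 of 57, against 2.87% of all genes. Under that setting the median was -0.23, and 9 genes had an unadjusted p under 0.05, against 12.6% of all genes. Markers of other tissues were also lower by estimate in the same fit: all 12 mesenchyme markers (median -2.06, each with an unadjusted p under 0.05), all 8 blood vessel markers (-1.29) and all 6 red blood cell markers tested (-1.35) had estimates below 0, with none called. With the mean of the mesenchyme markers as a covariate in the edgeR fit, 17 histone genes had an unadjusted p under 0.05 (9.95% of all genes). Apart from that covariate, the part of these tissue markers in the histone values was not tested.

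Hist1h2al had the lowest adjusted p of the histone genes in DKO against WT and in the Cre comparison. Its annotated locus (chr13:51202727-51203065, minus strand, GRCm38) lies outside the cluster and is a processed pseudogene of H2A type, and its exon overlaps Gm44341 on the other strand. It had 382, 182 and 347 CPM in WT (rh016, rh023, rh024) and 393 and 441 in Six6KO (rh007, rh020). It had 165, 156 and 119 CPM in Six3KO (rh006, rh012, rh026) and 142, 129 and 151 in DKO (rh010, rh011, rh021). Every Cre-carrying library was below every Cre-free one, though WT rh023 was close to Six3KO rh006. The log2 fold change was -1.11 ± 0.246 in DKO against WT (adjusted p = 0.0679) and -1.05 ± 0.245 in Six3KO against WT (adjusted p = 1). In the Cre comparison it was -1.31 ± 0.182 (adjusted p = 0.0661). With single libraries left out, edgeR called Hist1h2al in that comparison only without Six3KO rh026 or without WT rh023 (adjusted p = 0.0016). WT rh023 is the Cre-free library in which it was lowest. DESeq2 called it in DKO and in Six3KO against WT, in DKO against Six6KO and in the Cre comparison. Of its 50-base words 67.6% occur at other loci and strand use in counting is not stated, so reads of Gm44341 or of other H2A copies cannot be told apart from its own.

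Hist1h2bj, an H2B gene singled out after its values were seen, had 191, 135 and 134 CPM in WT and 155 and 216 in Six6KO. It had 106, 120 and 108 CPM in Six3KO and 128, 113 and 120 in DKO. The 2 sets did not overlap, and the gap between DKO rh010 (128) and WT rh024 (134) was small. Its log2 fold change in the Cre comparison was -0.55 ± 0.123 (edgeR, adjusted p = 0.201). DESeq2 called it in that comparison (adjusted p = 0.00709) and in DKO against Six6KO (adjusted p = 0.0387).

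Some genes left the pattern shared by the rest. Each gene's log2 CPM was set against the median histone gene of the same library: over 55 genes with at least 5 CPM, the range across libraries had a median of 0.45 (quartiles 0.35 and 0.66), and 6 genes exceeded 1.3. They were Hist1h2bn (2.6), Hist1h2ai (2.36), Hist1h4i (2.02), Hist1h2al (1.54), Hist1h2bp (1.52) and Hist2h2be (1.32), of which Hist1h2bn and Hist1h4i fall outside the rule for named genes and were chosen after their values were seen.

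Hist2h2be, the H2B gene with the long 3′ UTR and no stem-loop match, had 23.4, 24.9 and 21.4 CPM in WT and 22.9, 25.9 and 22.4 in Six3KO. It had 20.5 and 28.7 CPM in Six6KO and 26.3, 26.4 and 24.5 in DKO. Neither WT rh016 nor the Six3KO libraries stood out, and the log2 fold change in DKO against WT was 0.15 ± 0.138 (adjusted p = 0.765). None of its 50-base words occurs at another locus. Whether its transcripts in these retinas end in a poly(A) tail was not tested. The lack of a match did not go with a level profile in other genes. WT rh016 over the mean of rh023 and rh024 was 1.01 for Hist2h2be. It was 1.81 for Hist1h1a, 1.48 for Hist1h2bc, 1.89 for Hist1h3g and Hist1h4a, and 2.04 for Hist2h3b, which had no match either.

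Hist1h2bn, an H2B gene, had 220, 138 and 140 CPM in WT and 130, 177 and 151 in Six3KO. It had 148 and 373 CPM in Six6KO and 180, 145 and 41.7 in DKO. The lowest value was thus in DKO rh021, where most histone genes were higher than in the other DKO libraries. Hist1h2ak, which starts 296 bases from it in the other direction, had 341 CPM in that library, above rh010 and rh011. Of the 50-base words of Hist1h2bn 86.4% occur at other loci, the most in Hist1h2bk.

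Hist1h2ai, an H2A gene, had 16.2, 9.25 and 10.8 CPM in WT and 9.73, 10.7 and 21.9 in Six3KO. It had 6.15 and 31.5 CPM in Six6KO and 4.75, 7.54 and 7.37 in DKO. The 3 DKO values were below all WT values but Six6KO spanned both, and 90.1% of its 50-base words occur at other loci. Its log2 fold change in DKO against WT was -0.89 ± 0.551.

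**Figure D4:**
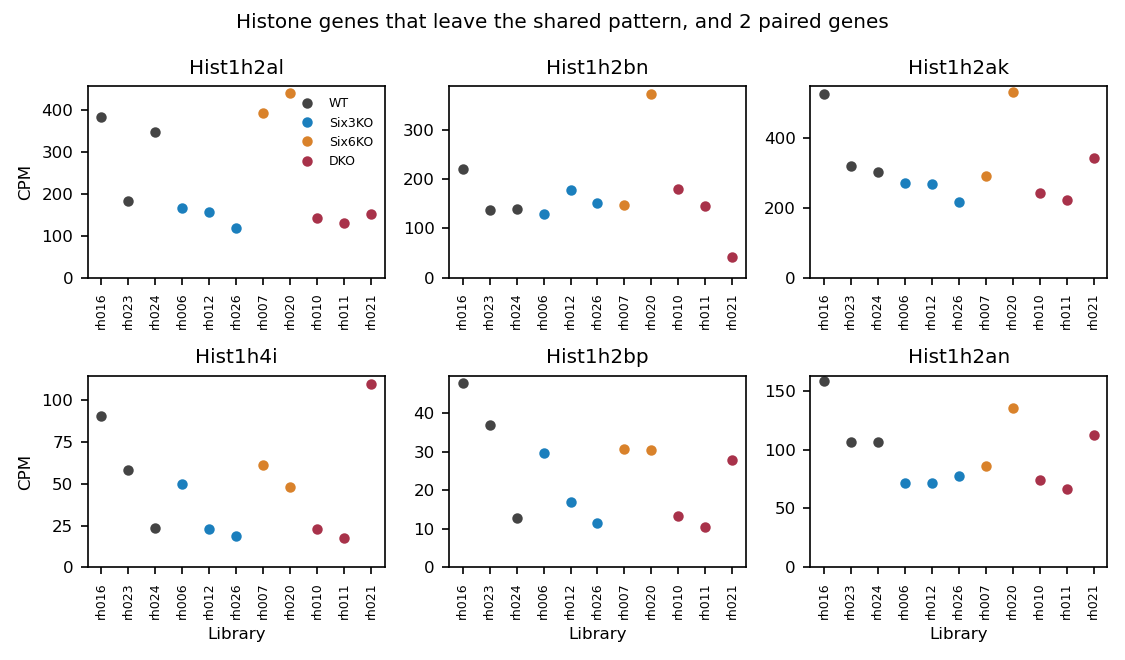
CPM (y axis from 0) of 4 histone genes that leave the shared pattern and of 2 divergent neighbours (Hist1h2ak of Hist1h2bn, Hist1h2an of Hist1h2bp), 1 point per library, coloured by group. Hist1h2al is at 119 to 165 CPM in the 6 Six3KO and DKO libraries and 182 to 441 in the others; Hist1h2bn is lowest in DKO rh021 (41.7) and Hist1h4i highest there (110).

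Other genes of histone supply and of S phase were read from lists. The 26 S phase genes (replication licensing, nucleotide supply and cyclins) had estimates below 0 for all 26 in DKO against WT (median -0.28), in Six3KO against WT (-0.28) and in the Cre comparison (-0.24), and none was called. An unadjusted p under 0.05 was found for 8, 6 and 11 of the 26, against 13%, 3.5% and 9.67% of all genes. Gins2, a subunit of the replicative helicase, had 42.5, 32.1 and 32.6 CPM in WT and 22, 19.9 and 27.6 in DKO (log2 fold change -0.63 ± 0.182, adjusted p = 0.143). Cdc6, a licensing factor, had 44.3 to 51.3 CPM in WT and 33 to 42.6 in DKO (-0.38 ± 0.122, adjusted p = 0.198). The mean log2 level of the S phase genes relative to WT was 0.05 in rh016, 0.06 in rh023 and -0.11 in rh024, and -0.07 and -0.08 in Six6KO rh007 and rh020. The histone means of these libraries were 0.48, -0.17, -0.3, -0.18 and 0.53. WT rh016 and Six6KO rh020 were thus the highest libraries for histone genes. On the S phase list rh016 lay just under WT rh023 and above the other libraries, and rh020 was level with Six6KO rh007. In Six3KO rh006, rh012 and rh026 the S phase means were -0.2, -0.17 and -0.47 and the histone means -0.5, -0.55 and -0.62, and in DKO rh010, rh011 and rh021 they were -0.38, -0.45 and -0.07 against -0.51, -0.63 and -0.07. The lists therefore ordered the DKO libraries alike, and rh026 was the lowest Six3KO library on both.

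The genes that transcribe, process or degrade histone RNA (21) and the histone chaperones and importers (17) were nearly level, and none was called in any comparison. Their medians were -0.12 and -0.13 in Six3KO against WT, with 20 and 14 estimates below 0, and -0.03 and -0.05 in DKO against WT. Slbp, which binds the stem-loop, had 84.1, 68.3 and 57.9 CPM in WT and 55.3, 49.9 and 61.8 in DKO (log2 fold change -0.33 ± 0.163, adjusted p = 0.447). Cpsf3, the nuclease that cuts histone RNA, was at 0.27 ± 0.111 in the same comparison (adjusted p = 0.331). Chaf1a, of the CAF-1 chaperone, was at -0.39 ± 0.149 (adjusted p = 0.276), and Nasp, an H1 and H3-H4 chaperone, at -0.25 ± 0.125 (adjusted p = 0.464).

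The 11 replacement histones, whose RNAs are made outside S phase too, had a median of -0.1 in Six3KO against WT (10 below 0) and 0.05 in DKO against WT (5 below 0), with none called. H1f0, the replacement H1, had 468, 468 and 402 CPM in WT and 325, 329 and 397 in DKO (log2 fold change -0.35 ± 0.121, adjusted p = 0.231). H2afx, the H2A variant of DNA damage signalling, was at -0.28 ± 0.115 (adjusted p = 0.337). Their mean relative to WT ran from -0.27 to 0.12 over the 11 libraries, against -0.63 to 0.53 for the replication-dependent genes.

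Short RNAs without poly(A) tails were read beside the histone genes, since they share that end. Of 12 listed, 6 were in the table and none was called. The 3 with more than 10 CPM in every library were chosen for that level. Rmrp, the RNA of RNase MRP, had 4449 CPM in WT rh016 and 4327 in Six6KO rh020, and 2155 to 3593 in the other 9 libraries. Rpph1, the RNA of RNase P, had 3894 and 5123 CPM in the same 2 and 1869 to 2957 in the others. Terc, the telomerase RNA, had 26.7 and 42.6 CPM in them and 13.8 to 21.6 in the others. All 3 RNAs were therefore highest in the 2 libraries of highest histone share. The rest of the list, at low levels, was not highest in both of these libraries. Rnu11 and Rnu12 were highest in Six3KO rh026 (1.72 and 3.33 CPM). They had 1.48 and 3.05 CPM in WT rh016, and 1.28 and 1.39 in Six6KO rh020. Snord118 was highest in WT rh016 (1.8 CPM), with 0.963 in Six6KO rh020 and 1.53 in WT rh024. The list mean relative to WT was 0.24 in Six3KO rh026, the library of lowest histone share. The red blood cell markers summed to 4742 CPM in rh020, the highest, and 1416 in rh016, and the mesenchyme markers to 1466 and 1826, within the range of the other libraries. The part of these differences in the histone values was not tested.

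**Figure D5:**
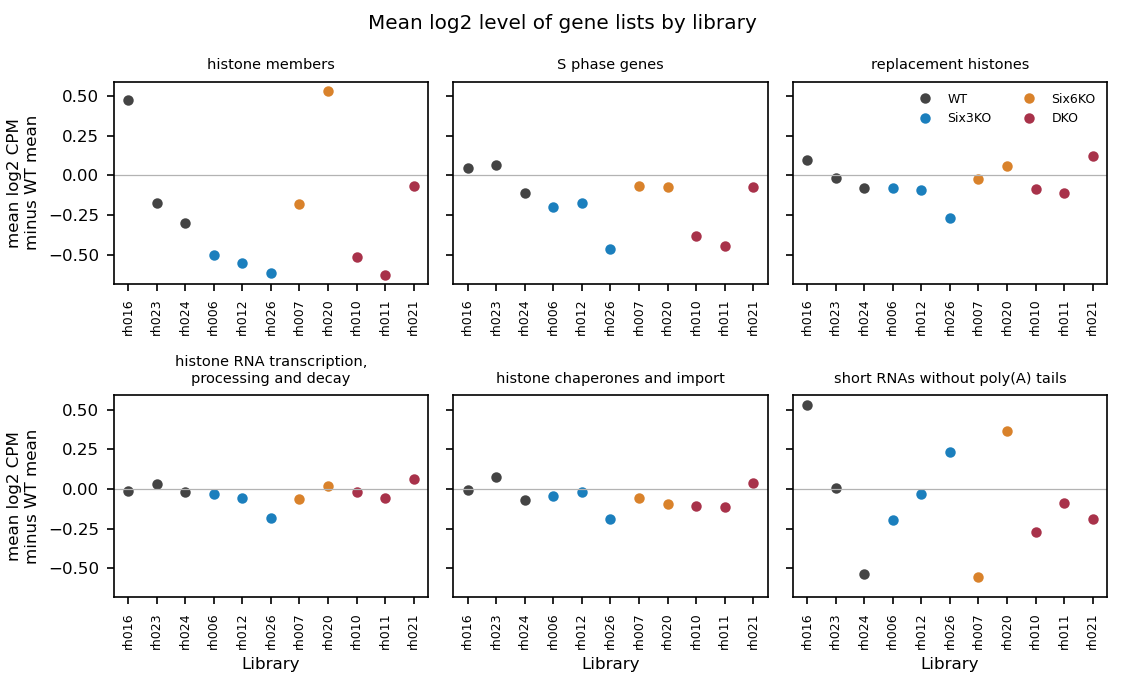
Mean log2 CPM of 6 gene lists relative to WT, 1 point per library, coloured by group. The histone genes and the short RNAs without poly(A) tails are high in WT rh016 (0.48 and 0.53) and Six6KO rh020 (0.53 and 0.37), where the S phase genes are at 0.05 and -0.08. In Six3KO rh026 the short RNAs are at 0.24 and the histone genes at -0.62.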

How the data were processed

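The deposited file is a single table of raw counts by gene symbol, with a column for each of 11 libraries. For its making, the submitters' processing notes name Trim Galore 0.3.7, TopHat2 2.0.13, the build mm10, HTSeq 0.6.1, Cufflinks 2.2.1 and Cuffdiff. The sources used here do not give the annotation, the strand setting or the treatment of reads that map to several places, and the last bears on near-identical histone genes.

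In R 4.3.3, these counts were fitted with edgeR 4.0.16: filterByExpr (minimum count 10) kept 13292 of 13498 genes, and all 11 libraries, TMM-scaled, entered 1 robust quasi-likelihood fit with a mean per group. A gene was called at a Benjamini-Hochberg adjusted p under 0.05 over all tested genes. The standard error is the log2 fold change divided by the square root of F. DESeq2 1.42.0 was an alternative. The code was tested on simulated data. Replicates of 1 group differed by more than sampling noise in every pair. CPM is TMM-scaled, and list means use log2 CPM with a prior count of 2.

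Histone genes and lists were chosen with earlier results of these data known. Named genes are the 3 of highest CPM in each class, and the 6 with the largest and 6 with the smallest fold change in DKO against WT among those with at least 5 CPM; other lists give the 2 genes with the smallest p in that comparison.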

Additional observations from a re-analysis of the deposited data

How the results depend on the processing

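Alternative scalings, no low-count filter, a mesenchyme covariate, the compared groups alone, DESeq2 and leaving out libraries were tried; leaving out rh016 and rh020 together, the non-overlap counts without them, the progenitor markers without Six3 and Six6, and the gene-level repeats were added after seeing the data. Other scalings moved the median of all genes by at most 0.035.

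The count of histone genes called, 0 in every comparison, became 1 (DKO against WT), 1 (Six3KO against WT), 2 (DKO against Six6KO) and 11 (Cre comparison) with DESeq2, which called 5.82%, 0.155%, 5.05% and 1.79% of all genes, and 1 in DKO against Six6KO with the compared groups alone. Leaving out 1 library at a time gave 0 to 1 in DKO against WT (1 without WT rh023), and 0 to 1 in DKO against Six6KO and in the Cre comparison (1 without Six3KO rh026 or without WT rh023); the gene was Hist1h2al. The median in DKO against Six6KO was -0.13 without Six6KO rh020 with or without either WT rh016 or Six3KO rh026 (-0.128 to -0.131), and ran from -0.87 to -0.13 over single libraries left out. The median in Six6KO against WT ran from -0.24 to 0.48, and in the difference between DKO and the added single effects from -0.29 to 0.43, over single libraries left out, so neither kept its sign. The medians in DKO against WT (-0.59 to -0.14), Six3KO against WT (-0.75 to -0.33) and the Cre comparison (-0.74 to -0.37) kept theirs.

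Some named genes changed sign. In DKO against WT, with the mesenchyme covariate, Hist2h2be was at -0.001, Hist3h2ba at -0.169 and Hist2h2ab at 0.253. Without rh016 and rh020, Hist1h2bb was at 0.023, Hist2h2ab at 0.205, Hist3h2a at 0.161 and Hist2h2ac at 0.03. Over single libraries left out, Hist1h2bb ran from -0.572 to 0.02, Hist2h2ab from -0.252 to 0.202, Hist2h2ac from -0.265 to 0.027, Hist3h2a from -0.276 to 0.157 and Hist3h2ba from -0.039 to 0.143. In Six3KO against WT, Hist1h2ai was at -0.256 without rh026 and rh020 and ran from -0.257 to 0.485 over single libraries left out, and Hist2h2be ran from -0.019 to 0.097. None of the genes that changed sign was called; the cause was not tested. With 1 Six6KO library left, that library is assumed to vary like the other groups.

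No paired analysis was possible because the columns carry no replicate number. Precision is set by the 2 or 3 libraries of a group more than by depth: the SD of the WT libraries' median histone log2 CPM was 0.422.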

Other observations

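By CPM, Hist1h4i, an H4 gene, and Hist1h2bp, an H2B gene, split the libraries in the same way, and the split crossed the genotypes. Both were chosen after their values were seen. Hist1h4i had 90.3 CPM in WT rh016, 58 in WT rh023, 49.9 in Six3KO rh006, 61.4 and 47.9 in Six6KO rh007 and rh020, and 110 in DKO rh021. In the remaining 5 libraries (WT rh024, Six3KO rh012 and rh026, DKO rh010 and rh011) it had 17.6 to 23.7 CPM. Hist1h2bp had 27.9 to 47.8 CPM in the first 6 libraries and 10.4 to 16.9 in the same 5. By CPM, each genotype but Six6KO held libraries of both kinds. Set against the median histone gene of each library, Hist1h4i was at 0.59 in Six6KO rh007 and -0.48 in Six6KO rh020. Six3KO rh012 was also at -0.48, and Hist1h2bp was lower in Six6KO rh020 (-0.27) than in Six3KO rh012 (-0.04). On that scale rh020 fell with the 5 low libraries for both genes, so every genotype held both kinds. The genes lie in the cluster of chromosome 13, Hist1h4i at 22040636 to 22041362 and Hist1h2bp at 21787461 to 21789213 (GRCm38), and 28.9% and 44.1% of their 50-base words occur at other loci. Hist1h2an, which starts 243 bases from Hist1h2bp in the other direction, did not follow the split: it had 72 CPM in Six3KO rh006 and rh012 alike.

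Both genes are annotated with sequence beyond the stem-loop, 330 bases in Hist1h4i and 38 in Hist1h2bp. This does not set them apart, since every gene with a stem-loop match is so annotated, from 3 bases in Hist1h4m to 4884 in Hist1h1d. The files give 1 count per gene, so the part of each transcript from which the reads came is not analysed here.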
